A study of Homo sapiens with 6 samples.

Results

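The 10 genes described here, *IGF2*, *H19*, *DLK1*, *MEG3*, *PEG3*, *PEG10*, *NDN*, *CDKN1C*, *GNAS* and *PLAGL1*, are imprinted genes of loci other than that of *MEST*. They were chosen by name rather than by a threshold on their values, and make up 10 of the 58735 genes listed in each library. Their levels were read from RNA-seq libraries of SK-N-AS, an established human neuroblastoma cell line, in which cells given a small interfering RNA (siRNA) against Prp19, called siPrp19, were compared with cells given a control siRNA without that target, called NC. Prp19, the product of *PRPF19*, is a factor of pre-mRNA splicing. There were 3 libraries per group, named here NCa, NCb, NCc, siPrp19a, siPrp19b and siPrp19c after their file columns. The labels place the collection of RNA at 72 h after transfection, whereas the methods give a shorter time, and both groups received a transfection, so no untransfected cells were included. The libraries described here come from a single cell line, whereas the study also sequenced another neuroblastoma line. The study's results say that 1 siRNA was chosen for the experiments that followed a first test. Its methods describe the replicates as biological, whereas the labels name no separate cultures, so p-values measure the spread between these libraries.

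At an imprinted locus, the copies inherited from the mother and from the father are not used equally, because a methylated control region set in the germ line marks one of them. Many imprinted genes act on growth, and they often lie in clusters in which a noncoding RNA is made from one parental copy and protein-coding genes from the other. The paternally expressed growth factor gene *IGF2* and the maternally expressed RNA gene *H19* form such a pair, as do *DLK1* and *MEG3*, and loss of imprinting at these clusters is known in embryonal tumors. The values below are the sum of both parental copies, since expression levels do not tell the alleles apart. In bulk RNA, fewer cells of a type and less RNA per cell cannot be told apart either.

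*MEG3* was the only one of the 10 genes that differed between NC and siPrp19 by the test, so its promoter is shown first, with the microRNAs carried inside the 2 long noncoding RNAs. The sequences are those of RefSeq on GRCh38.p14, 5′ to 3′. The promoter window runs from 250 bases before to 50 bases after a RefSeq start of *MEG3*, chr14:100825858-100826157 on the plus strand. Its capitals mark TGACGTCA, a palindrome known as the cAMP response element, which ends 42 bases before the start.
MEG3 promoter: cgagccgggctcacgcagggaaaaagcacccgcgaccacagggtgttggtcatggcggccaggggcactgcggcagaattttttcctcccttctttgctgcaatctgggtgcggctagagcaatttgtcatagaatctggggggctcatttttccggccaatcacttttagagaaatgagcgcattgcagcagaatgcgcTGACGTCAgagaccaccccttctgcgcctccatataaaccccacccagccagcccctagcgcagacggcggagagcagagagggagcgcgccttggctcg
In the mature microRNAs the capitals mark the seed, bases 2 to 8, with which a microRNA pairs to its targets.
hsa-miR-675-3p: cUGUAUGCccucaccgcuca
hsa-miR-675-5p: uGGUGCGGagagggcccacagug
hsa-miR-770-5p: uCCAGUACcacgugucagggcca

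The motif was present in 3 of 3 RefSeq promoter windows of *MEG3* and in 642 of all 34943 promoter windows of the same length, or 1.84%, with both strands read together because the motif is its own reverse complement. Windows were merged only where their coordinates were identical, so the 3 may overlap and hold the same copy. Enrichment was not tested. Promoter windows were found for 5 of the 10 genes, and those of *H19*, *NDN*, *GNAS* and *PLAGL1* did not hold these letters. Both miR-675 arms lie within an exon of *H19* on the minus strand of chromosome 11, at chr11:1996768-1996787 and chr11:1996800-1996822. The miR-770 arm lies within an exon of *MEG3* on the plus strand, at chr14:100852409-100852431. The hairpin genes of both microRNAs lie wholly within exons of their host genes and were listed at 0 in all 6 libraries, as nearly all genes nested in this way were, so these zeros say nothing about the microRNAs. The 3 seeds differ from each other.

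The libraries held between 14887132 and 19977811 reads recovered from the deposited FPKM values (fragments per kilobase of exon length, relative to the size of the library), and mitochondrial genes took 8.29% of them in siPrp19a and between 5.15% and 5.49% in the 5 other libraries. The names of the libraries contradict the sample records. In 4 of the 6 files, the column carries the description of another sample than the one the file is deposited under. For 2 of these, NCb (deposited as an siPrp19 sample) and siPrp19b (deposited as an NC sample), the group itself is the opposite one. The targeted gene was therefore examined first. *PRPF19* was at 83.0, 83.1 and 93.0 FPKM in NCa, NCb and NCc and at 19.6, 19.1 and 18.5 FPKM in siPrp19a, siPrp19b and siPrp19c, so the column names separate high from low libraries and the sample records do not. Its mean was 77.9% lower in siPrp19 (86.4 ± 5.78 against 19.1 ± 0.573 FPKM, SD, n = 3), with a log2 fold change of -2.12 ± 0.07 SE (limma, Benjamini-Hochberg adjusted p = 0.000215), and of -2.15 in the 4 libraries in which both sources name the same group, NCa, NCc, siPrp19a and siPrp19c (limma adjusted p = 0.0266). With the groups of the sample records, the log2 fold change was -0.74. Column names were used for all comparisons below, and the calls are also given for those 4 libraries. The pairs NCa with NCb and siPrp19b with siPrp19c differed far less than all other pairs, with a chi-square per degree of freedom over genes of 1.67 and 2.45, against 16.0 to 41.3 for the 13 other pairs. Both close pairs still differed beyond sampling noise, which does not show whether they came from separate cultures. They were kept as separate libraries, and results with each pair averaged are given for *MEG3* and for the related genes.

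Of 12 adrenergic neuroblastoma markers, 11 were above 1 FPKM, and only *TH*, the first enzyme of catecholamine synthesis, was below it. Mesenchymal neuroblastoma markers were above 1 FPKM for 9 of 11 genes, fibroblast markers for 6 of 7, epithelial markers for 3 of 6, leukocyte markers for 1 of 5 (*PTPRC*) and Schwann-like markers for 0 of 6. The summed level was lower in each siPrp19 library than in each NC library for the adrenergic list (358.5 to 381 against 447 to 479 FPKM), the mesenchymal list (246 to 269 against 312 to 347 FPKM), the fibroblast list (937 to 1009 against 1150 to 1203 FPKM) and the leukocyte list (17.2 to 20.9 against 25.5 to 31.0 FPKM). The epithelial sums overlapped, at 47.4 to 51.3 FPKM in siPrp19 and 46.7 to 63.1 FPKM in NC. These sums follow the most abundant genes of each list and do not hold for each gene. In the adrenergic list, *GATA2* was higher in every siPrp19 library (20.1 to 21.6 against 18.7 to 19.2 FPKM). *ISL1*, *FN1*, *PRRX1* and *COL1A1*, among others, had overlapping groups. The part of the marker differences in the results below was not tested.

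The 10 genes spanned the whole range of levels, from some of the most abundant transcripts of the cells to none. By FPKM, which is per length, the order of the mean levels was *PEG10*, *GNAS*, *NDN*, *MEG3*, *CDKN1C*, *IGF2*, *H19*, *DLK1*, *PLAGL1* and *PEG3*. The first 7 kept this order in each of the 6 libraries. *PEG10*, *GNAS* and *NDN* were higher than 99.3%, 99.1% and 98.4% of all listed genes, *MEG3* than 91.0%, *CDKN1C* than 83.3% and *IGF2* than 78.9%. The ranges over libraries overlapped for the neighbours *PEG10* and *GNAS* and among the last 4 genes, and *H19* was above *DLK1* in 5 of 6 libraries. Levels varied least over the 6 libraries for *GNAS*, with a coefficient of variation of 9.21%, followed by *PEG10* at 11.1%, *NDN* at 12.5%, *CDKN1C* at 19.8%, *MEG3* at 25.3% and *IGF2* at 29.6%.

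**Figure D1:**
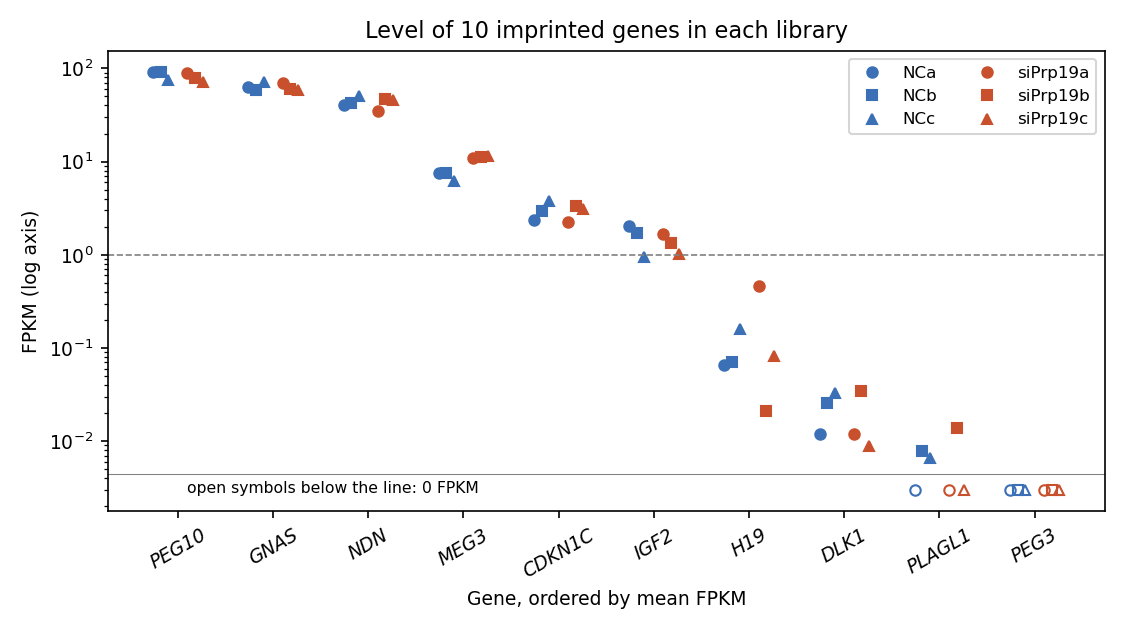
FPKM of the 10 imprinted genes (log axis) in each of the 6 libraries, in order of mean FPKM, with blue symbols for NC and orange symbols for siPrp19, open symbols for libraries at 0, and a dashed line at 1 FPKM, the minimum mean for testing. The genes run from *PEG10*, at 72.0 to 92.2 FPKM, to *PEG3* at 0, and the blue and orange symbols are apart only for *MEG3*.

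Of the 10 genes, 6 reached a mean of at least 1 FPKM and were tested together with 13718 genes in all. Of these 6, 1 was higher in siPrp19 by the test (*MEG3*), 0 were lower and 5 did not pass the threshold of 0.05 on the adjusted p-value. Of the 13718 genes, 7.94% passed this threshold, made up of 2.57% that were higher and 5.37% that were lower in siPrp19. The split between higher and lower genes moved with the scaling, from 353 higher and 736 lower as deposited to 501 and 586 after quantile normalization and 545 and 387 after scaling to the same FPKM sum over nuclear genes in each library (equal nuclear sums). The groups did not overlap for 1 of the 6 genes, against 31.3% of all tested genes. The median log2 fold change of the 6 genes was -0.05, and that of all tested genes was -0.02. In the 4 libraries with agreeing names, limma called 0 of the 6 genes, with 1 at an unadjusted p under 0.05, and voom, a limma model for read counts, called 1, in each case *MEG3*. The shares of all tested genes called in these 4 libraries were 0.0146% and 2.2%. With the groups of the sample records, limma called 0 of the 6, with 0 at an unadjusted p under 0.05, and 0 genes of all those tested (0.0%).

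Among the maternally expressed noncoding RNAs, *MEG3* was higher in every siPrp19 library than in every NC library. *MEG3* (ENSG00000214548), a long noncoding RNA gene known for growth-restraining activity in tumor cells, spans chr14:100779410-100861031 (plus strand). It was at 7.53, 7.49 and 6.22 FPKM in NCa, NCb and NCc and at 10.9, 11.3 and 11.4 FPKM in siPrp19a, siPrp19b and siPrp19c, from between 2483 and 5550 reads a library. The 3 siPrp19 libraries lay close together, and NCc was the lowest of all. The mean was 58.3% higher in siPrp19 (7.08 ± 0.747 against 11.2 ± 0.240 FPKM, SD, n = 3). The log2 fold change on the log2(FPKM + 1) scale was 0.60 ± 0.08 SE, with a 95% interval from 0.40 to 0.80 (limma, Benjamini-Hochberg adjusted p = 0.0102). A two-sided exact permutation test gave p = 0.1, the smallest possible with 3 libraries against 3. *MEG3* ranked 96th by size among the 353 genes called higher, whose median was 0.48, and 4.0% of all tested genes had a larger absolute change.

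The call on *MEG3* depended on the libraries used. Its groups did not overlap, so fits that only left out or averaged libraries could not reverse its direction. In the 4 libraries with agreeing names, limma gave a log2 fold change of 0.63 ± 0.13 SE (adjusted p = 0.157) and voom one of 0.72 (adjusted p = 0.0365). With each close pair of libraries averaged, it was 0.63, and the limma adjusted p was 0.152. The call was also lost without siPrp19b (0.59, limma adjusted p = 0.0545) or without siPrp19c (0.59, limma adjusted p = 0.0541), and held without any one of the 4 other libraries, with log2 fold changes from 0.52 to 0.64. With the groups of the sample records, the difference was 0.24 ± 0.22 SE (limma adjusted p = 1.00).

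Other transcripts of the same domain had lower levels. The domain from *DLK1* to *DIO3* listed 124 genes, among them 54 microRNA and 47 small nucleolar RNA genes, of which 56 had reads and 7 were tested. Only *MEG3* passed the threshold among these 7. The others were small RNA genes of 69 to 78 bases with at most 5 reads in a library. They reached the minimum level through their short length, so their tests say little about the domain. *MEG8* and *MEG9*, long noncoding RNA genes downstream of *MEG3* and singled out after their values were seen, were under the minimum level for testing. *MEG8* was at 0.256, 0.287 and 0.167 FPKM in the NC libraries and at 0.370, 0.365 and 0.476 FPKM in the siPrp19 libraries, from 32 to 111 reads a library. *MEG9* was at 0.492, 0.612 and 0.597 FPKM in the NC libraries and at 0.788, 0.905 and 0.949 FPKM in the siPrp19 libraries, from 25 to 64 reads. For both, each siPrp19 library was above each NC library, a pattern that held in either direction for 31.3% of all tested genes. That share covers only genes that reached the minimum level, which *MEG8* and *MEG9* did not. The ratio of the means was 1.71 for *MEG8*, 1.55 for *MEG9* and 1.58 for *MEG3*. Neither passed in the fit without the minimum level, where their limma adjusted p-values were 0.377 and 0.350. *RTL1*, a retrotransposon-derived gene of the domain that is expressed from the paternal copy, had 8, 5 and 9 reads in the NC libraries and 5, 7 and 14 in the siPrp19 libraries, with overlapping groups.

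**Figure D2:**
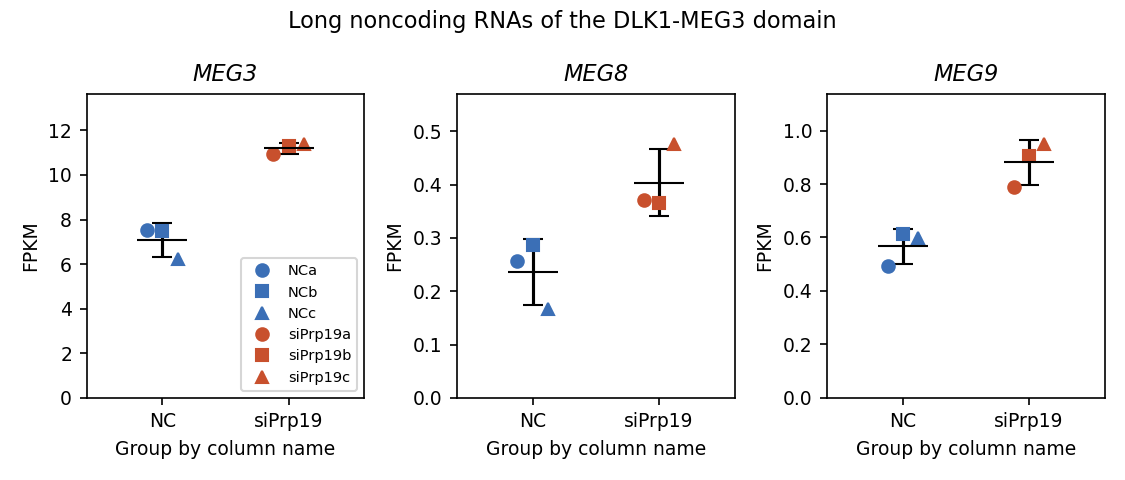
FPKM of *MEG3*, *MEG8* and *MEG9* in the 3 NC and 3 siPrp19 libraries, each panel on its own axis from 0, with a symbol per library, a line at the group mean and bars of 1 SD. In each panel all siPrp19 libraries lie above all NC libraries, with ratios of the means of 1.58, 1.71 and 1.55.

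*H19* (ENSG00000130600), the second maternally expressed noncoding RNA, spans chr11:1995176-2001470 (minus strand) and was close to the limit of detection. It had 3, 3 and 8 reads in NCa, NCb and NCc and 21, 1 and 5 reads in siPrp19a, siPrp19b and siPrp19c, which is 0.0209 to 0.459 FPKM. The highest library, siPrp19a, and the lowest, siPrp19b, were of the same group, so the groups overlapped (two-sided exact permutation p = 0.8). The summed reads were 14 in NC (95% Poisson interval 7.65 to 23.5, counting error only) and 27 in siPrp19 (17.8 to 39.3), of which siPrp19a gave 21.

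The protein-coding genes *CDKN1C*, which is maternally expressed, and *GNAS*, whose imprinting differs between its transcripts, did not pass the test. *CDKN1C* (ENSG00000129757), which encodes the cyclin-dependent kinase inhibitor p57, spans chr11:2883213-2885773 (minus strand). It was at 2.34, 2.93 and 3.75 FPKM in NCa, NCb and NCc and at 2.22, 3.33 and 3.11 FPKM in siPrp19a, siPrp19b and siPrp19c, from 87 to 162 reads. The lowest libraries were NCa and siPrp19a, and the groups overlapped. The log2 fold change was -0.04 ± 0.16 SE, with a 95% interval from -0.43 to 0.35 (limma adjusted p = 0.909).

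*GNAS* (ENSG00000087460), spanning chr20:58839718-58911192 (plus strand), encodes the stimulatory G protein alpha subunit that couples receptors to adenylyl cyclase. Its main transcript is made from both copies in most tissues, and other transcripts of the locus are imprinted. It was at 62.4, 58.9 and 72.2 FPKM in NCa, NCb and NCc and at 69.8, 59.5 and 59.3 FPKM in siPrp19a, siPrp19b and siPrp19c. The highest libraries, NCc and siPrp19a, were of different groups. The log2 fold change was -0.04 ± 0.11 SE, with a 95% interval from -0.29 to 0.22 (limma adjusted p = 0.879). The table holds 1 value for all transcripts of *GNAS*, so the imprinted ones were not separated.

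Of the paternally expressed genes, 3 were tested and did not pass. *PEG10* (ENSG00000242265), a gene derived from a retrotransposon and needed for placental development, spans chr7:94656325-94669695 (plus strand). It was at 91.7, 92.2 and 74.5 FPKM in NCa, NCb and NCc and at 90.2, 78.4 and 72.0 FPKM in siPrp19a, siPrp19b and siPrp19c. NCa, NCb and siPrp19a formed the upper libraries, so the split did not follow the groups. The log2 fold change was -0.10 ± 0.12 SE, with a 95% interval from -0.39 to 0.19 (limma adjusted p = 0.672). The genes whose pattern over the 6 libraries was most like that of *PEG10*, among 5057 genes that varied by at least 0.5 on the log2 scale, were *ASPM*, *KIF20B* and *VCAN*, with Pearson r of 0.993, 0.988 and 0.987 over libraries that include both groups and the close pairs. They are the 3 highest of these 5057 correlations, and high values are likely from so many genes over 6 libraries. *PEG10* itself varied by 0.352 on that scale, under the minimum asked of the others.

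*NDN* (ENSG00000182636) spans chr15:23685400-23687330 (minus strand), in the region of Prader-Willi syndrome, and encodes necdin, a MAGE family protein of postmitotic neurons. It was at 40.5, 42.0 and 50.7 FPKM in NCa, NCb and NCc and at 35.2, 46.6 and 45.7 FPKM in siPrp19a, siPrp19b and siPrp19c. Both the highest library, NCc, and the lowest, siPrp19a, stood apart from the rest of their own group. The log2 fold change was -0.07 ± 0.14 SE, with a 95% interval from -0.39 to 0.25 (limma adjusted p = 0.811).

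*IGF2* (ENSG00000167244), which encodes insulin-like growth factor 2, spans chr11:2129112-2149603 (minus strand). It was at 2.05, 1.70 and 0.941 FPKM in NCa, NCb and NCc and at 1.66, 1.34 and 1.02 FPKM in siPrp19a, siPrp19b and siPrp19c, from 113 to 227 reads. NCc and siPrp19c were the lowest of their groups, and the groups overlapped. The log2 fold change was -0.12 ± 0.19 SE, with a 95% interval from -0.57 to 0.34 (limma adjusted p = 0.771). This interval is the widest of the 6 tested genes.

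The level of *IGF2* was also the one most exposed to the annotation. In GENCODE 29, 5235 of its 6979 exon bases, or 75.0%, are shared with exons of other genes, 5144 of them on the same strand. These genes include *INS-IGF2*, a read-through of the insulin gene whose 1826 exon bases are all shared, and ENSG00000284779, a second gene that carries the name *IGF2*, and both were listed at 0 in all 6 libraries. Over the whole annotation, 1139 genes had no exon base free of genes on the same strand, and 5.00% of them had any reads, with at most 5 in a library. Of the 56841 genes with some unshared base, 60.5% had reads. If reads were counted on the 1744 unshared bases alone, the mean level of *IGF2* per length would be 5.81 FPKM (range 3.77 to 8.22 over the libraries) in place of 1.45, or 4.0 times higher, and above *CDKN1C* at 2.95. Its place in the order of levels is therefore uncertain, whereas the comparison between groups uses the same length in every library. The other 9 genes shared between 0% and 12.9% of their exon bases, the largest part being that of *PEG3* with *ZIM2*.

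**Figure D3:**
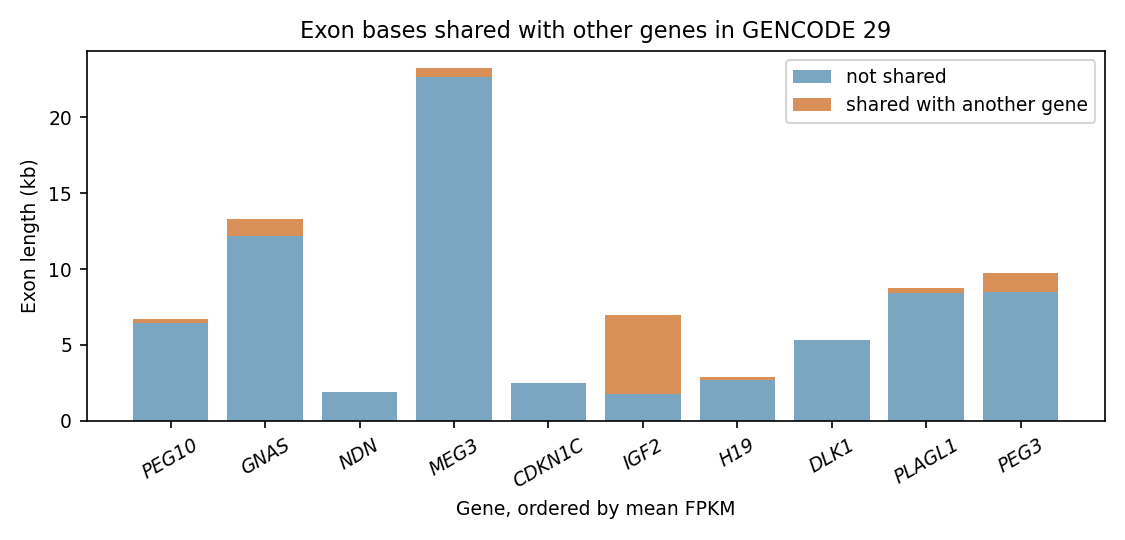
Exon length of the 10 genes in kb in GENCODE 29, split into bases that no other gene shares (blue) and bases shared with an exon of another gene on either strand (orange). *IGF2* shares 75.0% of its bases, and each of the other 9 genes at most 12.9%.

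The remaining 3 paternally expressed genes were at or near 0 in both groups. *DLK1* (ENSG00000185559), which encodes a transmembrane relative of the Notch ligands, spans chr14:100725705-100738224 (plus strand) and had 1, 2 and 3 reads in the NC libraries and 1, 3 and 1 in the siPrp19 libraries (exact permutation p = 0.8). *PLAGL1* (ENSG00000118495), a zinc finger transcription factor gene spanning chr6:143940300-144064599 (minus strand), had 0, 1 and 1 reads in the NC libraries and 0, 2 and 0 in the siPrp19 libraries (exact permutation p = 1). *PEG3* (ENSG00000198300), a zinc finger protein gene spanning chr19:56810077-56840728 (minus strand), had 0 reads in all 6 libraries, which allows a level of up to 0.0146 to 0.0208 FPKM per library for a floor of 3 reads. In the limma fit without the minimum level, the adjusted p-values were 0.791 for *H19*, 0.910 for *DLK1* and 0.996 for *PLAGL1*. Differences between the groups were not detectable at this depth for *H19*, *DLK1*, *PLAGL1* and *PEG3*. *DLK1* had few reads in each library, while *MEG3*, its partner in the domain, had 2483 or more.

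**Figure D4:**
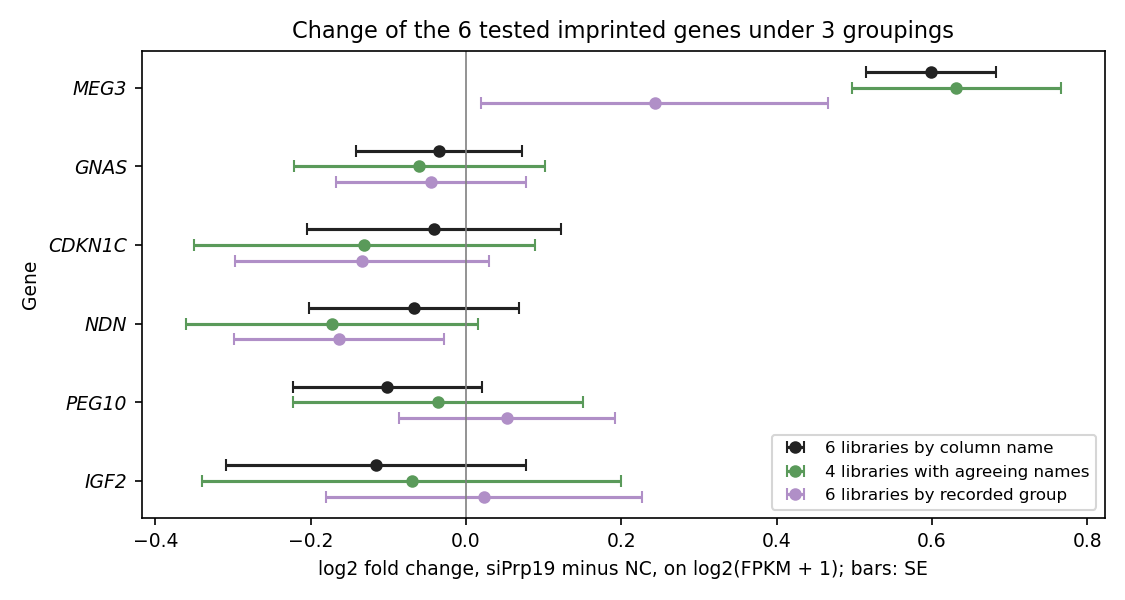
Log2 fold change (siPrp19 minus NC, log2(FPKM + 1) scale) of the 6 tested imprinted genes with bars of 1 SE, for 6 libraries grouped by column name, the 4 libraries with agreeing names, and 6 libraries grouped by sample record. *MEG3* lies at 0.60, 0.63 and 0.24, and the 5 other genes lie within 0.2 of 0 in each grouping.

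Genes that share a domain, a family or a pathway with the 10 genes were counted in the same fit. Of 123 such genes tested, 12 passed the threshold, where 7.94% of all tested genes did. In the 4 libraries with agreeing names, limma called 2 of all 13718 tested genes, with 1685 at an unadjusted p under 0.05. Voom called 302 there, or 2.2%. Of the 123, limma called 0 there, with 17 at an unadjusted p under 0.05, and voom called 4, *DDC*, *IGFBP4*, *FURIN* and *SKP2*. These 4 genes also passed limma's test in 6 of 6 fits that left out a library, and each of these fits kept a close pair. Of the 8 others, *DNMT1* passed in 4 of the 6, *CDK2* and *CDK1* in 3, *UBE3A*, *UHRF1*, *CDKN1A* and *PRKAR2B* in 2, and *STC2* in 1. Over all 18 alternative fits, these 8 passed in between 5 (*STC2*) and 12 (*DNMT1*). In the 4 libraries, the limma adjusted p of the 12 genes ranged from 0.12 (*FURIN* and *DDC*) to 0.406 (*STC2*). With each close pair averaged, limma called 0 of the 123. The 12 genes kept their direction in all 18 alternative fits. For each of the 12 the groups did not overlap, so fits that only left out or averaged libraries could not reverse it. Over the 6 fits that left out a library, between 4 and 20 of the 123 genes passed, the fewest without siPrp19c and the most without NCc. Without NCa, NCb and siPrp19b, 5, 5 and 6 passed. The number of all 13718 tested genes that passed was also lowest without siPrp19c (253) and highest without NCc (1354). It was 264, 335 and 270 without NCa, NCb and siPrp19b.

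Of the imprinted genes in the members' own domains, 15 of 38 were tested, and 1 was lower in siPrp19. This was *UBE3A*, a ubiquitin ligase gene of the same domain as *NDN* that is imprinted in neurons, with means of 9.63 ± 0.652 against 6.31 ± 0.594 FPKM and a log2 fold change of -0.54 (limma adjusted p = 0.0148, and 0.0656 with equal nuclear sums). NC and siPrp19 libraries did not overlap for 4 of the 15, where 31.3% of all tested genes had groups without overlap, and their median log2 fold change was -0.09. Of the imprinted genes of further loci, 16 of 26 were tested, and 1 was lower, *DDC*, which encodes aromatic L-amino acid decarboxylase and is also one of the adrenergic markers. Its means were 41.3 ± 3.66 against 24.3 ± 0.732 FPKM (log2 fold change -0.74, limma adjusted p = 0.00553). For 4 of these 16 the groups did not overlap, and their median was 0.08.

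In the axis of *IGF2*, 22 of 28 ligand, receptor, binding protein and signalling genes were tested, 2 were higher and 1 was lower. *FURIN*, which encodes a convertase that cleaves proproteins, went from 17.6 ± 0.444 to 30.3 ± 1.2 FPKM (log2 fold change 0.75, limma adjusted p = 0.00244). *STC2*, which encodes stanniocalcin 2, went from 26.6 ± 1.52 to 36.5 ± 4.56 FPKM (0.44, limma adjusted p = 0.0488). *STC2* passed in only 5 of 18 alternative fits, and its limma adjusted p was 0.0767 with equal FPKM sums, 0.0599 without the variance trend, 0.122 without the minimum level and 0.0536 with the replicate block. *IGFBP4*, which encodes a binding protein that sequesters IGFs, went from 138 ± 16.3 to 77.9 ± 6.15 FPKM (-0.81, limma adjusted p = 0.00928). Groups without overlap were seen for 7 of the 22, whose median was 0.01.

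Among regulators of imprint maintenance and DNA methylation, 18 of 22 were tested, 0 were higher and 2 were lower. They were *DNMT1*, the maintenance methyltransferase gene, at 30.6 ± 2.31 against 19.9 ± 0.928 FPKM (log2 fold change -0.59, limma adjusted p = 0.00900), and *UHRF1*, whose protein recruits it to replicating DNA, at 31.0 ± 1.11 against 22.7 ± 1.65 FPKM (-0.44, limma adjusted p = 0.0190). The call on *UHRF1* ended with equal FPKM sums (limma adjusted p = 0.0939) and with equal nuclear sums (0.0735). Of the 18 genes, 9 had groups that did not overlap, against the same 31.3%, and the median was -0.17. DNA methylation itself was not measured.

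The relatives and partners of *CDKN1C* were all 10 tested, 1 was higher and 3 were lower. *CDKN1A*, the gene of the related inhibitor p21, went from 15.3 ± 0.596 to 24.3 ± 3.76 FPKM (log2 fold change 0.62, limma adjusted p = 0.0216, and 0.0695 without the minimum level). *SKP2*, whose ubiquitin ligase targets these inhibitors, went from 39.1 ± 2.09 to 22.4 ± 1.81 FPKM (-0.78, limma adjusted p = 0.00463). The kinase genes *CDK2* (-0.50, limma adjusted p = 0.0140, and 0.0580 with equal FPKM sums) and *CDK1* (-0.48, limma adjusted p = 0.0111) were the other lower ones. For 9 of the 10 the groups did not overlap, against 31.3% of all tested genes, and the median was -0.26.

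In Gs and cAMP signalling, the pathway of *GNAS*, 24 of 30 genes were tested and 1 was lower, *PRKAR2B*, a regulatory subunit gene of protein kinase A, at 13.4 ± 0.660 against 9.81 ± 0.691 FPKM (log2 fold change -0.41, limma adjusted p = 0.0219). This call ended with equal FPKM sums (limma adjusted p = 0.0941), with equal nuclear sums (0.107) and without the minimum level (0.0548). Overlap was absent for 7 of the 24, with a median of 0.02. Of the MAGE family relatives of *NDN*, 7 of 11 were tested and 0 passed, and the most abundant were *MAGED2*, *MAGED1* and *MAGEF1*, with log2 fold changes of 0.18, 0.08 and 0.09. Of the retrotransposon-derived relatives of *PEG10*, 11 of 17 were tested and 0 passed, and the most abundant were *RTL8C*, *RTL8A* and *PNMA1*, with log2 fold changes of 0.14, 0.30 and 0.12. Groups without overlap were seen for 2 of the 7, with a median of 0.09, and for 4 of the 11, with a median of 0.12. *PLAGL2*, the paralog of *PLAGL1*, was at 10.2 ± 1.61 and 10.9 ± 1.25 FPKM (log2 fold change 0.09, limma adjusted p = 0.713), while *PLAGL1* had at most 2 reads in a library.

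**Figure D5:**
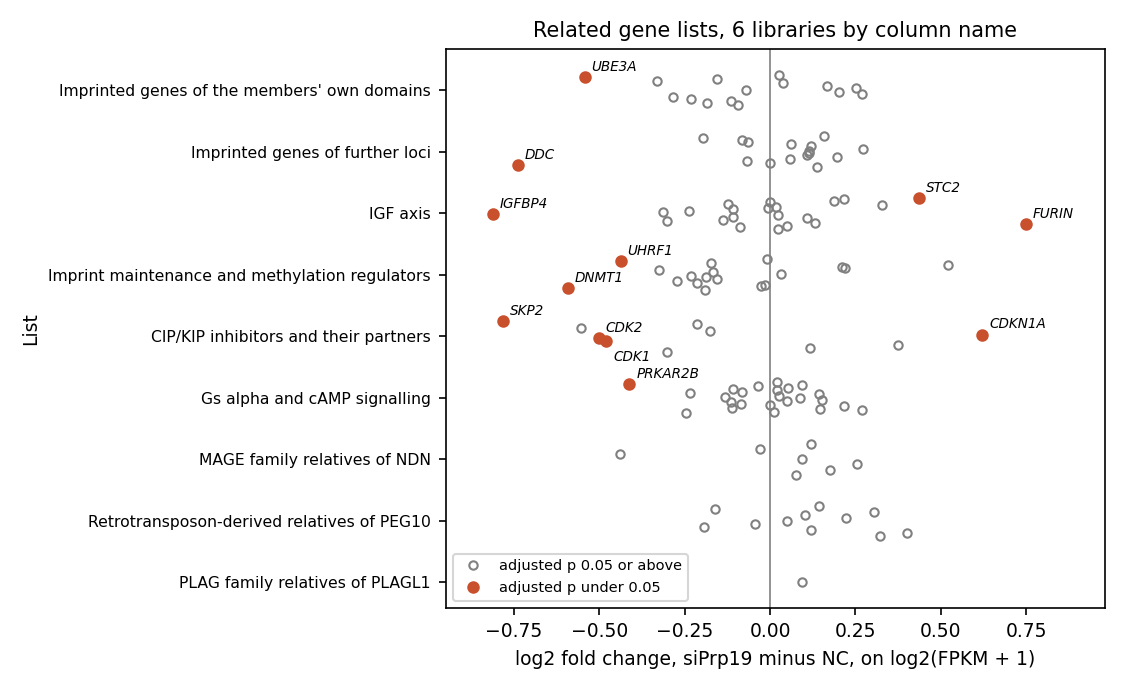
Log2 fold change (siPrp19 minus NC, 6 libraries by column name) of each tested gene of the 9 related lists, with filled symbols for genes with an adjusted p under 0.05. The 12 filled symbols lie between -0.81 (*IGFBP4*) and 0.75 (*FURIN*), and the lists of MAGE, retrotransposon-derived and PLAG genes hold none.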

How the data were processed

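The authors deposited 1 table per library with an FPKM value for each of 58735 Ensembl genes. The submitters' processing notes name HISAT2 2.0.5, featureCounts 1.5.0-p3 and hg38. Strandedness is not given in the sources used here, so these do not tell how reads of overlapping or antisense genes were counted. Of 755 genes whose exon bases were all shared only with both strands counted, 0.795% had reads, with at most 4 in a library. Bases shared on either strand thus gave such genes almost no reads. All identifiers were matched to GENCODE 29. In each library, FPKM multiplied by exon length gave whole reads for every value within 0.05 read, so reads were recovered. Library totals were 0.951 to 1.04 times those implied by the FPKM scale. Counting intervals cover counting error only.

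Libraries were grouped by column name, with the replicate number given by its letter (a, b and c as 1, 2 and 3). Genes with a mean of at least 1 FPKM were tested on log2(FPKM + 1), a scale that understates changes of low genes, with limma 3.58.1 in R 4.3.3 (mean-variance trend, Benjamini-Hochberg over all tested genes, threshold 0.05). The authors used DESeq2 on counts. Single members were also tested with two-sided exact permutation tests, and 3 members under the minimum level were tested in this way and in the limma fit without a minimum. Alternatives were a pseudocount of 0.1, no minimum level, quantile normalization, equal FPKM sums over all or over nuclear genes, no variance trend, voom with TMM scaling, the replicate block, each library left out, the 4 libraries with agreeing names, the recorded groups, and close pairs averaged. Voom on 4 libraries and the unshared length of *IGF2* were added after seeing the data.

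The members and lists were chosen with earlier results of these data known. Named genes were *PRPF19*, the members, each list's genes past the threshold (up to 5 per direction) or else its 3 most abundant, and the 3 genes most like the most abundant member. *MEG8*, *MEG9* and *RTL1* fall outside this rule and were chosen after their values were seen. Tables were made in Python 3.11.15 (pandas 2.3.3, scipy 1.17.1, numpy 2.4.6) and figures with matplotlib 3.10.9. Coordinates are GRCh38 as given by GENCODE 29.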

Additional observations from a re-analysis of the deposited data

How the results depend on the processing

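*MEG3* kept its direction in all 18 alternative fits, from 0.24 to 0.72, and *PRPF19* was lower in all of them (-2.15 to -2.07 with each library left out). The groups of both genes did not overlap, so fits that only left out or averaged libraries could not reverse these directions. No direction can be given for the 5 other tested members, whose log2 fold changes crossed 0. They became positive for *PEG10* (0.0489), *NDN* (0.0522) and *GNAS* (0.131) under quantile normalization, for *GNAS* (0.00709) with equal FPKM sums, for *PEG10* (0.00637), *NDN* (0.0396), *CDKN1C* (0.0409) and *GNAS* (0.0722) with equal nuclear sums, for *IGF2* (0.0230) and *PEG10* (0.0526) with the recorded groups, and for *IGF2* (0.0266) with close pairs averaged. With each library left out in turn, they ranged from -0.30 to 0.0226 for *IGF2*, -0.14 to 0.0601 for *NDN*, -0.16 to 0.0893 for *CDKN1C*, -0.11 to 0.0480 for *GNAS* and -0.20 to -0.03 for *PEG10*. None of these 5 passed the threshold in any fit. The number of genes called was 1089, and it was 512 with no minimum level, 679 with equal FPKM sums, 253 to 1354 with a library left out, 2 in the 4 libraries with agreeing names (1685 at an unadjusted p under 0.05), 302 there with voom, 0 with the recorded groups (191 unadjusted) and 2 with close pairs averaged. The number of members called was 0 or 1 with a library left out and 0 in the last 3 of the limma groupings named (4 libraries, recorded groups and close pairs averaged). The cause was not tested, although fewer libraries were fitted in several. Replicate letters were not shown to pair the libraries, since libraries of the same letter correlated in their deviations at only 0.13, -0.05 and 0.20. NCa and NCc correlated best with the siPrp19 library of their own letter, whereas NCb correlated best with siPrp19a. With the letter as a replicate block, 928 genes and 1 member, *MEG3* (limma adjusted p = 0.0209), were called. Depth limited *H19*, *DLK1*, *PLAGL1* and *PEG3*, with at most 21 reads a library.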
